A study of Homo sapiens with 4 samples.

Results

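The nuclear genes that encode the subunits of respiratory chain complexes I to V were examined in HGC-27 cells, an established human gastric cancer line, cultured for 48 h with PBS or with 200 ng/ml rIL-17B, the recombinant form of a cytokine that binds IL-17RB. Each condition had 2 RNA-seq libraries. Members were chosen by their names alone, as genes of the NDUFA, NDUFB, NDUFC, NDUFS and NDUFV series, SDHA to SDHD, the UQCR series with CYC1, the COX4 to COX8 series and the ATP5 series, and names of numbered pseudogenes were dropped (22 names). This gave 81 of the 31907 gene names with a count in any library. Of these, 37 belonged to complex I, 4 to complex II, 10 to complex III, 13 to complex IV and 17 to complex V. All 81 were found in GENCODE 29 on GRCh38.

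The respiratory chain sits in the inner mitochondrial membrane. Complexes I and II take electrons from NADH and succinate and pass them to ubiquinone, complex III hands them to cytochrome c, and complex IV gives them to oxygen. Complexes I, III and IV pump protons as they do so, and complex V, the ATP synthase, lets the protons flow back and makes ATP. Mitochondrial DNA encodes a few central subunits of complexes I, III, IV and V, and the nucleus encodes all the others and the whole of complex II. Many gastric and other cancer cells keep a working chain alongside glycolysis.

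The deposited files held read counts per gene name, between 13101431 and 17826596 per library and between 12888029 and 17555879 once date-like and repeated names were removed, and values are given as CPM, the count divided by the library total and scaled to 1e6. A level of 3 counts corresponded to between 0.171 and 0.233 CPM. The labels place all libraries in the HGC-27 line, although their library protocol speaks of monocytes. Nothing states that the replicates were separate cultures, so the p-values then measure only the spread between these libraries, which may be technical. One library stood apart. Across genes, which are not independent replicates, log CPM of rIL-17B replicate 1 correlated with the other libraries at 0.836 to 0.870, while the other pairs correlated at 0.987 to 0.991. The 8 mesenchymal markers summed to 1167 CPM in rIL-17B replicate 1 and to 45842 CPM in replicate 2. The PBS libraries had 54804 and 53848 CPM. All 8 were below both PBS libraries in replicate 1, and all 8 also in replicate 2, where the shift was smaller. The 8 epithelial markers summed to 1861 CPM and 1034 CPM in these libraries, against 806 and 816 CPM in the PBS libraries, most of it KRT8 and KRT18. In replicate 1, 5 of the 7 tested epithelial markers were above both PBS libraries and 2 were below, KRT19 with 47, 43, 1 and 58 counts in PBS replicates 1 and 2 and rIL-17B replicates 1 and 2, and CLDN4. In replicate 2, 5 of the 7 were above both PBS libraries and 1 was below. The 6 neural and glial markers gave 27.6 CPM in rIL-17B replicate 1, where 3 of them were at 0. They gave 258 CPM in replicate 2 and 349 and 546 CPM in the PBS libraries. Of the 5 tested, 4 were below both PBS libraries in replicate 2. The 9 monocyte markers gave only 8.62 to 14.3 CPM in the 4 libraries, with 5 of them at 0 in rIL-17B replicate 1 and none at 0 in replicate 2. Because rIL-17B replicate 1 stood apart, each rIL-17B library is given on its own below. In bulk libraries, more cells with a high level and more RNA per cell cannot be told apart.

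Promoters of respiratory genes are known for short GC-rich elements bound by NRF1 and by ETS factors such as GABPA, so the upstream sequence of the members was inspected first. RefSeq promoter windows on GRCh38.p14, from 250 bases before to 50 bases after the start, were found for 64 members. Members were matched by their name in the counts or by a current name. The windows of genes tested here, given beside them, were matched by the name in the counts alone, so renamed genes are missing there. They also leave out NDUFA7, COX6B2 and COX8C, which are among the 64. Both strands were searched for GCGCATGC, the core of the NRF1 element, for CCGGAAG, the core of the ETS element, for AAGATGGCG of YY1 and for GGGCGG of SP1. The NRF1 core was in 13 of the 64 windows (20.3%), against 3.27% of all 27305 promoter windows of this length and 5.13% of the 11138 windows of genes tested here. The ETS core was in 19 windows (29.7%), against 10.7% of all and 18.0% of tested genes. The YY1 core was in 8 windows (12.5%), against 1.85% and 3.64%. The SP1 core was in 38 windows (59.4%), which lay between the 44.6% of all windows and the 68.5% of tested genes. With any base allowed at the sixth position (GCGCANGC), a form chosen after the windows had been seen and of which the NRF1 core is a special case, 27 windows held a match (42.2%), against 12.5% of all and 20.4% of tested genes. All 3 complex II windows held this form, as did 10 of 32 in complex I, 4 of 7 in complex III, 5 of 11 in complex IV and 5 of 11 in complex V. A match is a description of the letters and not evidence of binding.

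The stretches shown next are the bases nearest before the RefSeq start that lie in no annotated exon, at most 150 bases each, with motif matches in capitals. COX5B, a nuclear subunit of complex IV, was chosen because its stretch held the NRF1 core, 3 SP1 cores and an ETS core that directly follows one of them. SDHB, the iron-sulfur subunit of complex II, and NDUFB4, an accessory subunit of complex I, were chosen for their NRF1 cores. COX7B of complex IV and ATP5G1, a gene of the c subunit of the ATP synthase, were chosen because they had the highest fold change of their complexes in the comparison below while their stretches held no match.
COX5B (chr2:97645890-97646039, plus strand): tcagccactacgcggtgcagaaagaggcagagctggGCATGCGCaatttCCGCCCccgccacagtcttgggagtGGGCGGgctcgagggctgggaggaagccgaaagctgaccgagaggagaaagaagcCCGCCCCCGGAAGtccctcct
SDHB (chr1:17054171-17054282, minus strand): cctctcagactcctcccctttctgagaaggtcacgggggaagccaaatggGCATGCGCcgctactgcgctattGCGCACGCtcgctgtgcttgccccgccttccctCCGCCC
NDUFB4 (chr3:120596159-120596308, plus strand): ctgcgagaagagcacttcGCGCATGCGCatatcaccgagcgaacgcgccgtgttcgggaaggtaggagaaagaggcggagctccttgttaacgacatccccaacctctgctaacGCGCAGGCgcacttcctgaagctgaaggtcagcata
COX7B (chrX:77899288-77899437, plus strand): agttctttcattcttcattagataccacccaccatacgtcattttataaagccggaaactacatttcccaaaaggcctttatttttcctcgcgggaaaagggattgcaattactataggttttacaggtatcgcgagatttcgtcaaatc
ATP5G1 (chr17:48892678-48892764, plus strand): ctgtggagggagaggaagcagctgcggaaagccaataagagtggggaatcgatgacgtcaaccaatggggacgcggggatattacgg
In SDHB the first capital run is the NRF1 core read on the other strand, the second is its form with another sixth base, and the last is an SP1 core. In NDUFB4 the NRF1 core occurs on both strands of one overlapping run, and a further match of the looser form lies nearer to the start.

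All but COX8C and ATP5L2 of the 81 members had a count in every library (79 members), and their levels spread widely. Levels between genes were compared per kilobase of annotated exon, as the mean of the 2 PBS libraries with its SD. ATP5B, which encodes the catalytic beta subunit of the ATP synthase, was the highest member at 346 ± 5.81 CPM per kb. Its counts were 12638 and 10487 with PBS. NDUFS5, an accessory subunit, led complex I at 222 ± 13.7 CPM per kb, and UQCRH, the hinge protein, led complex III at 98.2 ± 5.57 CPM per kb. COX6B1 led complex IV at 76.9 ± 3.73 CPM per kb, but the PBS values of COX6B1 and of the next gene, COX5A at 73.9 ± 4.26 CPM per kb, overlapped. In complex II the order was SDHB at 31.9 ± 1.28, SDHA at 27.9 ± 0.519, SDHD at 10.2 ± 0.215 and SDHC at 6.25 ± 0.295 CPM per kb, with no overlap between neighbours. Among neighbours in the order of each complex, PBS values overlapped in 12 of 36 pairs in complex I, 0 of 9 in complex III, 4 of 12 in complex IV and 3 of 16 in complex V.

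The order depended on the length used. Merged exons count every annotated transcript of a gene, and the coding length does not. Per kilobase of coding sequence, 5 of the 10 highest members stayed among the 10 highest. The leading genes were then NDUFA4 in complex I at 401 ± 1.95, SDHC in complex II at 175 ± 8.24, UQCRH again in complex III at 507 ± 28.7, COX7C in complex IV at 651 ± 36.6 and ATP5E, the epsilon subunit, in complex V at 724 ± 28.9 CPM per coding kb. ATP5B was next in complex V at 507 ± 8.50 CPM per coding kb. The median over members was 75.2 CPM per coding kb in complex I, 105 in complex II, 103 in complex III, 186 in complex IV and 117 in complex V.

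Subunits of one complex are needed in fixed numbers, yet some had low counts. NDUFV2, a core iron-sulfur subunit of complex I, had 17, 9, 17 and 15 counts in PBS replicates 1 and 2 and rIL-17B replicates 1 and 2, in that order, which is kept for lists of 4 values below. NDUFA13 had 26, 13, 37 and 38 counts, NDUFB8 had 22, 14, 22 and 13 counts, and NDUFA7 had 6, 2, 6 and 7 counts. ATP5O, a protein of the peripheral stalk of the ATP synthase, had 75, 58, 65 and 60 counts. These genes share exons with other annotated genes. In GENCODE 29, 15 members had at least 15% of their coding bases inside an exon of another gene on the same strand, a limit chosen after the values had been seen. Their median PBS level was 14.2 CPM per coding kb, and 10 of the 15 were under 20. A further 5 members had such an overlap only with a gene on the other strand, with a median of 19.0 CPM per coding kb and 3 of them under 20. The other 61 members had a median of 126 CPM per coding kb, and 4 of them were under 20.

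**Figure D1:**
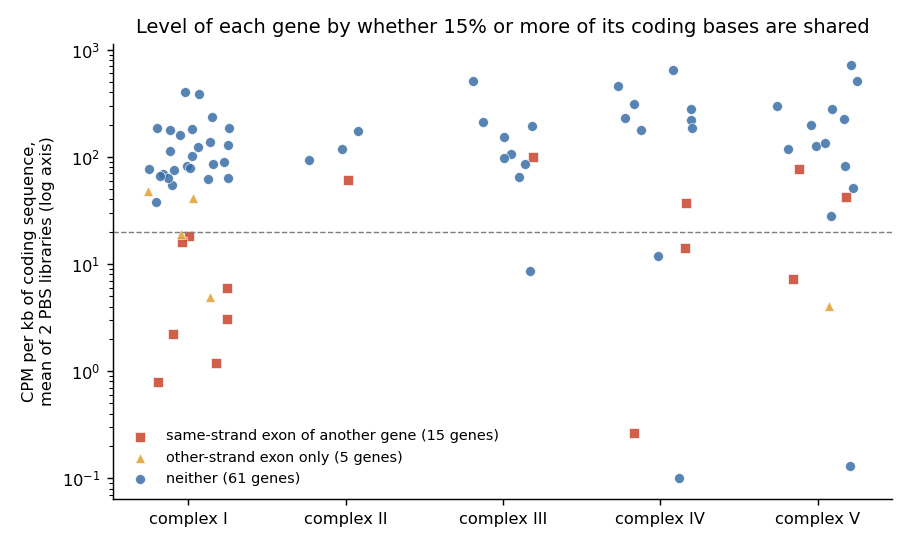
Mean level of the 81 members in the 2 PBS libraries, in CPM per kilobase of coding sequence on a log axis, by complex, with markers for members that share at least 15% of their coding bases with another gene on the same strand (15), on the other strand only (5) or with neither (61). The dashed line is at 20 CPM per coding kb, COX8C is at 0 and drawn at 0.1, and 10 of the 15 same-strand genes lie under the line against 4 of the 61 with neither.

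The shared part was 100% of the coding bases in NDUFV2 and NDUFA7. It was 98.4% in NDUFA13, whose span overlaps YJEFN3 and another gene on the same strand, and the parts of these genes were not separated. The shared part was 86.8% in NDUFC2, which lies inside the readthrough gene NDUFC2-KCTD14, 85.2% in NDUFA9, 83.9% in NDUFB8 and 74.0% in NDUFA11. In ATP5O it was 69.0%, in COX8A 55.1% and in COX6A1 53.5%. On the other strand the shared part was 45.4% in NDUFS7 and 44.0% in ATP5I, which runs against MYL5. UQCR11, with all its coding bases shared, was an exception at 101 ± 3.49 CPM per coding kb, and SDHD (65.8% shared) and ATP5L (68.9% shared) were at 60.7 ± 1.28 and 77.6 ± 5.99. How the counting treated reads that fall on several genes, and whether it used strand, is not given in the sources used here, so the levels of these 20 members are uncertain. The part of read assignment in their low counts was not tested. The 4 low genes without such an overlap were COX8C, ATP5L2, UQCRHL and COX7A1, which are tissue-restricted forms or near copies of other members.

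No member passed the test for a difference between rIL-17B and PBS. Of the 81 members, 77 passed the filter on low counts, and NDUFA7, COX6B2, COX8C and ATP5L2 did not. In edgeR's quasi-likelihood test over 16361 genes, 0 of the 77 had a Benjamini-Hochberg adjusted p under 0.05, as for all genes tested (0%). At an unadjusted p under 0.05 the members were also 0 of 77, against 1.38% of all genes, and DESeq2 gave 0 adjusted and 2 unadjusted, against 2.79% of all genes unadjusted in that test. The smallest p of a member was 0.063 for NDUFA6, and adjusted p ran from 0.661 to 0.995. All differences below are therefore values that did not pass the test. A single gene compared 2 against 2 by exact permutation cannot pass 0.05, since the smallest two-sided p it allows is 1 in 3.

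The values nevertheless lay mostly on one side. The fitted log2 fold change of rIL-17B against PBS was positive in 63 of the 77 tested members and negative in 14, with a median of 0.22 (all genes tested, -0.03). It was positive in 26 of 36 members in complex I (median 0.16), 4 of 4 in complex II (0.24), 9 of 10 in complex III (0.28), 10 of 11 in complex IV (0.19) and 14 of 16 in complex V (0.21). The 18 tested members with shared coding bases, whose levels are uncertain, had 11 positive and 7 negative values (median 0.05). The 59 tested members without had 52 and 7 (0.25). Without the shared ones, the medians of complexes I to V were 0.27, 0.40, 0.27, 0.24 and 0.24. By CPM, 44 of the 77 members had both rIL-17B values above both PBS values, against 31.5% of all genes tested, and 3 had both below, against 27.5%. The 3 were NDUFS4, NDUFA4 and ATP5O. The higher members were 19 of 36 in complex I, 4 of 4 in complex II, 5 of 10 in complex III, 6 of 11 in complex IV and 10 of 16 in complex V.

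The size of the difference came mostly from one library. Summed over the 81 members, the level was 5700 and 5703 CPM in the PBS libraries, 8382 CPM in rIL-17B replicate 1 and 6113 CPM in rIL-17B replicate 2, which is 1.47 and 1.07 times the PBS mean. The PBS libraries were nearly equal, and replicate 1 was far above replicate 2. For replicate 1, 68 of the 77 tested members were above both PBS libraries, against 50.1% of all genes tested, and for replicate 2 it was 45 of 77, against 37%. The median log2 ratio of members to the PBS mean, computed on CPM + 0.5, was 0.47 in replicate 1, where that of all genes tested was 0.08, and 0.08 in replicate 2, where that of all genes was 0.00. With TMM scaling, which shifted the median of all genes in replicate 1 to -0.04, the members' medians were 0.34 and 0.08, so relative to all genes the members lay 0.39 and 0.38 higher in replicate 1 under the library total and TMM, and 0.08 higher in replicate 2 under both. In 70 of the 77 members the gap between the rIL-17B libraries was wider than that between the PBS libraries, with a median of 0.41 against 0.09 on the log2 scale. The mesenchymal, neural and epithelial marker sums given above moved most in the same library, and less but in the same direction in replicate 2. Their part in these values was not tested.

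**Figure D2:**
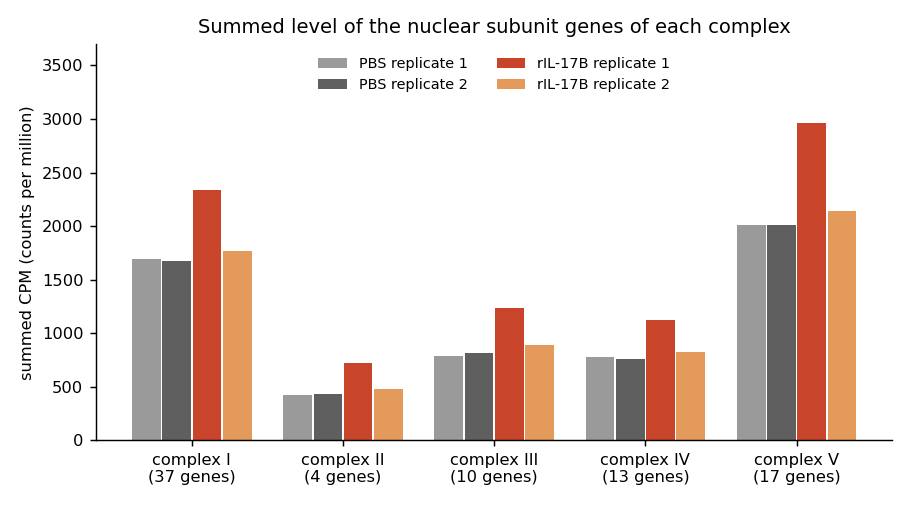
Summed CPM of the members of each complex in each of the 4 libraries, as bars from 0. In every complex rIL-17B replicate 1 is the highest bar, at 1.39 to 1.69 times the PBS mean, and rIL-17B replicate 2 is at 1.05 to 1.13 times.

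Without rIL-17B replicate 2, so that replicate 1 alone stood against PBS and was assumed to vary like the PBS libraries, 50 of the 77 members passed an adjusted p of 0.05 in edgeR, 47 of them higher, but so did 9489 of all 17223 genes (55.1%). Without rIL-17B replicate 1, 0 of the 77 members passed, against 504 of all genes (2.95%), and 5 members had an unadjusted p under 0.05, against 13.7% of all genes. The median log2 fold change of members was then 0.08. Leaving out either PBS library gave 0 calls.

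**Figure D3:**
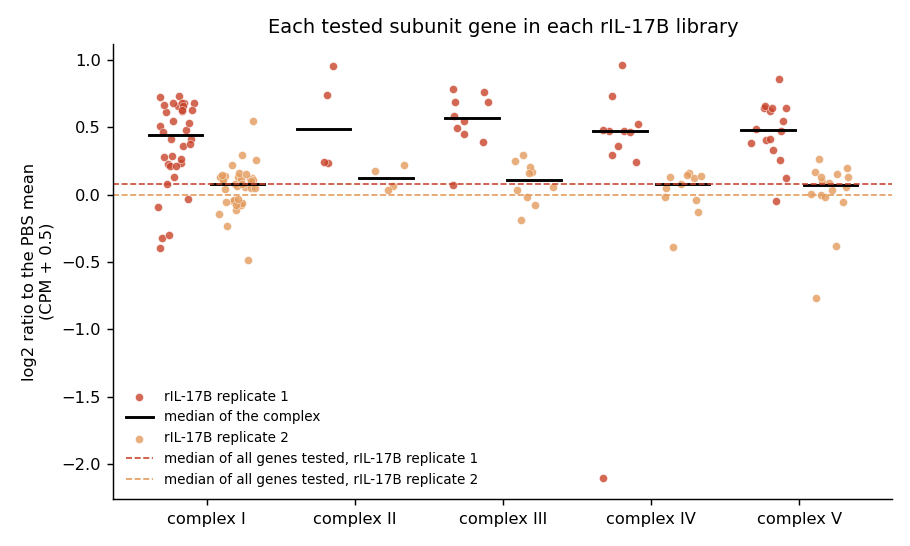
Log2 ratio of each of the 77 tested members to the PBS mean (CPM + 0.5) in rIL-17B replicate 1 and replicate 2, by complex, with the median of each complex as a black bar and the median of all genes tested as dashed lines. Medians of the members are 0.47 in replicate 1 and 0.08 in replicate 2, and the point near -2.1 is COX7A1.

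Complex II had the highest summed level relative to PBS of the 5 complexes. It is both a respiratory complex and an enzyme of the tricarboxylic acid cycle, and all of its subunits are nuclear. Its genes summed to 425 and 434 CPM in the PBS libraries, and rIL-17B replicates 1 and 2 had 724 and 483 CPM. SDHA, the flavoprotein that oxidises succinate (chr5:218241-256700, plus strand), had 230, 237, 454 and 272 CPM in the 4 libraries, with a log2 fold change of 0.55 ± 0.25 (SE). SDHB, whose upstream sequence is shown above, had 80.7, 76.3, 131 and 88.7 CPM, with a log2 fold change of 0.40 ± 0.19 (SE). In both genes the rIL-17B libraries lay above the PBS libraries without overlap. The membrane anchors differed less. SDHC had 85.6, 91.5, 104 and 92.6 CPM and a log2 fold change of 0.08 ± 0.10 (SE), and SDHD had 28.5, 29.4, 34.3 and 29.7 CPM and 0.07 ± 0.11 (SE). The summed level of SDHA and SDHB was 1.88 and 1.16 times the PBS mean in rIL-17B replicates 1 and 2, and that of the anchors was 1.18 and 1.04 times. Whether the catalytic and anchor subunits differ in this was not tested.

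In complex III the core proteins UQCRC1 and UQCRC2, the hinge protein UQCRH and the small subunits UQCRQ and UQCR10 had both rIL-17B values above both PBS values. The other 5 members overlapped with PBS, which were CYC1 and UQCRFS1, the carriers of metal centres, and UQCRB, UQCR11 and UQCRHL. UQCRC1, a core protein (chr3:48599002-48610976, minus strand), had 210, 233, 382 and 256 CPM and a log2 fold change of 0.44 ± 0.20 (SE). UQCRH, which sits at the docking site of cytochrome c1 and cytochrome c, had 144, 133, 235 and 165 CPM and 0.45 ± 0.18 (SE). UQCRQ, a small ubiquinone-binding subunit, had 16.4, 15.6, 26.1 and 19.8 CPM and 0.44 ± 0.17 (SE), with the smallest p of the complex (0.0653). Their rIL-17B values did not overlap with PBS, and replicate 1 was the highest each time. CYC1, cytochrome c1 itself, had 98.4, 108, 156 and 108 CPM, so that only replicate 1 stood above PBS. UQCRFS1, the Rieske iron-sulfur protein, had 64.5, 75.5, 73.5 and 66.2 CPM, with both rIL-17B values inside the PBS range. The summed level of CYC1 and UQCRFS1 was 1.32 and 1.00 times the PBS mean, and that of UQCRC1 and UQCRC2 was 1.63 and 1.14 times.

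In complex IV the nuclear subunits surround a core that mitochondrial DNA encodes. COX7B (chrX:77899438-77907373, plus strand) had 109, 111, 216 and 122 CPM and a log2 fold change of 0.53 ± 0.27 (SE), so that replicate 1 was at 1.96 and replicate 2 at 1.11 times the PBS mean. COX5B had 85.9, 85.9, 119 and 96.3 CPM and 0.25 ± 0.11 (SE). COX7A2, the widely expressed form of subunit VIIa, had 63.1, 60.8, 86.2 and 68.1 CPM and 0.24 ± 0.12 (SE). COX4I1, a regulatory subunit, had 158, 154, 200 and 171 CPM and 0.18 ± 0.10 (SE). In all 4 genes the groups did not overlap, with replicate 2 just above PBS. COX6B1 had 69.5, 74.4, 85.2 and 70.0 CPM, COX6A1 had 5.03, 4.27, 5.82 and 4.22 CPM and COX8A had 6.79, 8.46, 10.8 and 5.70 CPM, and in these 3 genes the groups overlapped. NDUFA4, named and counted here with complex I but regarded as a subunit of complex IV, lay the other way at 97.0, 97.7, 91.3 and 92.7 CPM, with a log2 fold change of -0.15 ± 0.11 (SE), and was lower in both rIL-17B libraries.

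In complex V the c subunit, which forms the rotating ring, is made from ATP5G1, ATP5G2 and ATP5G3, whose mature products are identical. ATP5G1 (chr17:48892765-48895871, plus strand) had 55.6, 54.7, 100.2 and 66.4 CPM and a log2 fold change of 0.51 ± 0.19 (SE), with the smallest p of the complex (0.0631). ATP5G2 had 130, 124, 200.5 and 139 CPM and 0.34 ± 0.18 (SE), and ATP5G3 had 119, 117, 185 and 126 CPM and 0.31 ± 0.18 (SE). All 3 were higher in both rIL-17B libraries. ATP5G1 gave 18.2% and 18.5% of the counts of the 3 genes with PBS and 20.61% and 20.03% with rIL-17B, where the exact 95% binomial intervals were 17.2% to 19.3%, 17.3% to 19.8%, 19.7% to 21.6% and 19.0% to 21.1%. The interval of each PBS library overlapped that of at least 1 rIL-17B library, and the intervals cover counting error only. ATP5G2 gave 41.2% to 42.6% in the 4 libraries. ATP5B had 795, 814, 1254 and 857 CPM and 0.31 ± 0.20 (SE). ATP5C1, the gamma subunit that turns inside the catalytic head, had 106, 103, 139 and 118 CPM and 0.22 ± 0.10 (SE), and ATP5F1, the b subunit of the stalk, had 152, 150, 233 and 168 CPM and 0.33 ± 0.16 (SE). ATP5I, of the membrane part, had only 18, 7, 14 and 5 counts, and its groups overlapped. The summed level of the 5 genes of the catalytic head was 1.44 and 1.06 times the PBS mean, and that of the c subunit genes was 1.62 and 1.10 times.

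In complex I, which oxidises NADH, the 7 core subunits encoded in the nucleus had 6 positive fold changes (median 0.24), and of the 29 tested accessory subunits 20 were positive (median 0.16). A difference between them was not tested. The core summed to 1.45 and 1.05 times the PBS mean in rIL-17B replicates 1 and 2, and the accessory subunits to 1.36 and 1.05 times. NDUFA6 (chr22:42085525-42090955, minus strand), an accessory subunit of the matrix arm, had 62.1, 59.98, 94.4 and 71.3 CPM and a log2 fold change of 0.36 ± 0.14 (SE). NDUFB6 had 23.7, 24.1, 33.1 and 28.6 CPM and 0.30 ± 0.12 (SE), and NDUFA8 had 35.6, 35.3, 56.2 and 39.7 CPM and 0.36 ± 0.17 (SE). In these 3 genes the groups did not overlap. NDUFS4, an accessory subunit needed for the last steps of assembly (chr5:53560633-53683340, plus strand), was below PBS in both rIL-17B libraries, at 19.7 and 19.6 CPM against 14.8 and 17.8 CPM, with a log2 fold change of -0.33 ± 0.20 (SE). NDUFA9 had 5.60, 7.84, 5.27 and 5.64 CPM and -0.36 ± 0.30 (SE), with overlapping groups and most of its coding bases shared with another gene. NDUFC2, inside its readthrough gene, had 5.91, 5.43, 4.52 and 5.87 CPM, with replicate 1 below and replicate 2 inside the PBS range, and NDUFA11 had 7.67, 7.60, 7.46 and 8.37 CPM, with one rIL-17B library on either side of PBS.

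**Figure D4:**
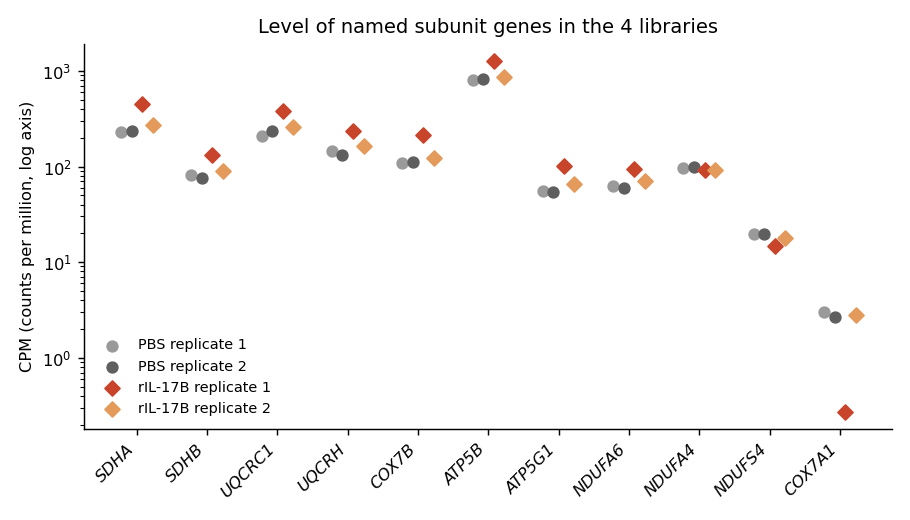
CPM of 11 named members in the 4 libraries on a log axis, circles for PBS and diamonds for rIL-17B. SDHA, UQCRC1, COX7B and ATP5G1 have replicate 1 clearly above and replicate 2 slightly above the PBS libraries, NDUFA4 and NDUFS4 have both below, and COX7A1 is at 0.274 CPM in replicate 1 alone.

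Several subunits of complex IV have forms that differ between tissues, and the muscle form of subunit VIIa was the member with the widest gap between the rIL-17B libraries. COX7A1, the form of heart and skeletal muscle, had 48, 34, 4 and 49 counts, or 3.02, 2.64, 0.274 and 2.79 CPM, so that rIL-17B replicate 1 was near the floor and replicate 2 was inside the PBS range. Its log2 fold change was -0.89 ± 1.15 (SE). As a share of the counts of COX7A1 and COX7A2, it was 4.57% (exact 95% binomial interval 3.39% to 6.01%), 4.16% (2.90% to 5.77%), 0.316% (0.0863% to 0.808%) and 3.94% (2.93% to 5.17%). The share in rIL-17B replicate 1 lay below the intervals of all other libraries. The 6 striated muscle markers summed to 51.1, 55.1, 127 and 63.5 CPM, nearly all of it ACTC1 at 46.1, 48.4, 122 and 59.4 CPM. In rIL-17B replicate 1, 2 of the 4 tested markers were above both PBS libraries, ACTC1 and MYH2, and 2 were below, DES and MYH7. The 2 myosin genes lay in opposite directions. MYH7, of slow muscle and heart myosin, had 35, 51, 0 and 20 counts, and MYH2 had 17, 13, 40 and 34 counts. Their part in the COX7A1 value was not tested. COX6B2, the testis form, had 1, 1, 1 and 2 counts beside 959 to 1245 of COX6B1, and COX8C, another testis form, had 1 count in rIL-17B replicate 2 and 0 in the others beside 100 to 158 of COX8A. ATP5L2, a copy of ATP5L, had at most 1 count. UQCRHL, an intronless near copy of UQCRH, had 41, 27, 51 and 35 counts, which was 1.20% to 1.76% of the counts of both genes, and reads of the pair may have been split by the counting.

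Genes around the chain gave similar values in the same fit. None of the lists had a member with an adjusted p under 0.05, and the percentages above for all genes apply. Of the 51 assembly factors, which build the complexes, 50 were tested, 38 had a positive and 12 a negative fold change (median 0.16), and 2 had an unadjusted p under 0.05. These were COX15, of heme A synthesis, at 41.5, 39.5, 63.5 and 50.7 CPM, and COX10, the preceding enzyme, at 19.4, 18.2, 34.7 and 24.1 CPM. The 17 genes of the tricarboxylic acid cycle and pyruvate dehydrogenase were 16 positive and 1 negative (median 0.25), and 11 were higher in both rIL-17B libraries. Of the 17, 1 had an unadjusted p under 0.05, IDH3A at 37.7, 38.6, 64.1 and 46.7 CPM. The 15 genes of mitochondrial import, porins and chaperones were all positive (median 0.27), and 14 were higher in both rIL-17B libraries. Of the 15, 1 had an unadjusted p under 0.05, TOMM22, a receptor of the outer membrane, at 55.1, 49.9, 99.1 and 71.9 CPM. The 10 electron carriers and related proteins were 9 positive and 1 negative (median 0.19), with ETFA at 120.0, 116, 185 and 129 CPM.

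Of the 17 regulators of respiratory genes, 13 were positive and 4 negative (median 0.17). TEFM, a mitochondrial elongation factor, had 4.72, 5.90, 9.10 and 8.72 CPM, and GABPA, the ETS factor named above, had 43.4, 48.4, 39.5 and 38.5 CPM and was lower in both rIL-17B libraries. The 13 subunits that mitochondrial DNA encodes did not share the direction. They summed to 56835, 55916, 61367 and 56876 CPM, so the rIL-17B libraries were at 1.09 and 1.01 times the PBS mean, with 6 positive and 7 negative fold changes (median -0.06). The nuclear members, at 1.47 and 1.07 times, lay above that in both libraries, and the difference was not tested.

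ATP synthase genes that the files carry under older names outside the rule lay with the members. USMG5 had 32.0, 26.7, 42.4 and 32.9 CPM, C14orf2 had 63.6, 55.6, 88.7 and 66.2 CPM, and ATPIF1, which inhibits the enzyme, had 125, 124, 204 and 143 CPM. These genes were named after their values were seen. COX4I2, COX6A2 and COX7B2 had no entry with a count in the files.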

How the data were processed

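RNA was measured in 4 libraries of HGC-27 cells by a Smart-seq2 protocol, in which cDNA is primed by oligo-dT and amplified by PCR. Of these, 2 received PBS and 2 received rIL-17B at 200 ng/ml, for 48 h. The authors deposited read counts per gene name, one list per library, as whole numbers without normalization and without genes at 0. The submitters' processing notes name Bowtie2 2.2.3, HISAT2 2.1.0, TopHat2, HTSeq 0.6.0 and hg38; their order, the gene annotation and whether reads were counted by strand are not given in the sources used here, and this touches members that share exons with other genes.

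Names turned into dates (22 to 25 entries per library) were left out, and 1 entry was kept of each repeated name (83 to 98 per library). Missing names were taken as 0. Library totals after this were 12888029 to 17555879 counts. Gene positions, exon lengths and exon sharing came from GENCODE 29 on GRCh38, and promoter windows from RefSeq on GRCh38.p14, for 64 members whose window lay on the chromosome and strand of the gene. rIL-17B was compared with PBS by edgeR 4.0.16 in R 4.3.3 (filterByExpr, TMM with factors of 0.970 to 1.073, quasi-likelihood F test on treatment alone, Benjamini-Hochberg adjustment over 16361 genes, threshold 0.05), since no test for sequencing counts is given in the sources used here. The SE of a log2 fold change was taken as its absolute value over the root of the F statistic. The fit was also run on counts simulated from the PBS means. No simulated library stood apart as rIL-17B replicate 1 did, so that run cannot show how the fit handles such a library. Alternatives were DESeq2 1.42.0, other scalings, filters, thresholds and lengths, a replicate block, and leaving out each library. Python 3.11.15 was used for the other steps. Members and gene lists were chosen with earlier results of these data known. Named members were the highest and lowest per exon length and the 3 smallest p in each complex, all of complex II, tissue forms, near copies, c subunit genes and NDUFA4, and the 5 with the widest gap between the rIL-17B libraries in each direction, with the 2 smallest p of each other list. Members with shared exons and ATP synthase genes under older names were added after their values were seen.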

Additional observations from a re-analysis of the deposited data

How the results depend on the processing

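The 0 members past an adjusted p of 0.05 stayed 0 under DESeq2, upper-quartile scaling, library totals, no filter, a minimum of 10 counts, a threshold of 0.1 and the replicate block, and leaving out one library gave 0 to 50. The replicate block changed no call and gave a median log2 fold change of 0.22. Replicate numbers gave only 2 pairs, and deviations from the group means correlated at 0.080 across genes. With 2 libraries per group, and rIL-17B replicate 1 apart from the rest, this value cannot decide whether libraries with the same number were paired. Leaving out one library moved the median log2 fold change of members between 0.075 and 0.34, of complex I between 0.075 and 0.31, of complex II between 0.12 and 0.35, of complex III between 0.11 and 0.44, of complex IV between 0.075 and 0.33 and of complex V between 0.069 and 0.35, always positive, with the lowest value without rIL-17B replicate 1 in each. In rIL-17B replicate 1, the members' median log2 ratio was 0.34 with TMM and 0.43 and 0.51 against a single PBS library, and in rIL-17B replicate 2 it was 0.075 and 0.11 against a single PBS library. Of the 10 highest members per exon length, 5 stayed with coding length. Leaving out members that share coding bases was an alternative chosen after seeing the data. The median was then 0.25 over 59 tested members and 0.40 in complex II, where SDHD drops out. It was 0.27 in complex I, 0.27 in complex III, 0.24 in complex IV and 0.24 in complex V. UQCRHL turned to -0.01 without PBS replicate 2 and -0.24 without rIL-17B replicate 1. Without rIL-17B replicate 2 the median log2 fold change of members was 0.34 (all genes tested, -0.06). Calls of named members in that setting rest on a single rIL-17B library and are not counted here. Of the other values under these alternatives, 348 kept direction and call. NDUFA7, COX6B2, COX8C and ATP5L2 had counts too low for the filter, and the cause was not tested. For the 77 tested members the median gap between the rIL-17B libraries was 0.41 on the log2 scale, against 0.09 between the PBS libraries.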
